A study of Mus musculus with 13 samples.

Results

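Kdm1a, Rcor1, Rcor2, Rcor3, Hdac1, Hdac2, Hmg20b and Phf21a encode the subunits of the LSD1 and CoREST complex. These 8 genes, of 21883 protein-coding genes with bounds on the assembled chromosomes, were chosen by name. Every region called for STAT5A, LSD1 or HDAC3 inside them or within 50 kb of their bounds was taken. Chromatin immunoprecipitation with sequencing (ChIP-seq) had been done in Ba/F3, an established mouse pro-B cell line that needs interleukin 3 (IL3) to live and divide, with antibodies to STAT5A, LSD1 and HDAC3. All cells were kept in 1 ng/mL IL3 and then deprived of it for 6 h. The group without IL3 was taken at that time, and the group with IL3 received 10 ng/mL IL3 for a further 30 min. Each protein and condition had 2 biological replicates, which gave 12 replicate lists of called regions, and for each of the 6 groups there was a pooled list, called on its merged libraries. The lists hold no expression values, so the cell type could not be checked against marker genes, and a region says where chromatin was recovered, not whether the gene was active.

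LSD1, encoded by Kdm1a, removes methyl groups from lysine 4 of histone H3 and is held on chromatin by a CoREST scaffold protein, encoded by Rcor1, Rcor2 or Rcor3. The scaffold also binds the deacetylases HDAC1 and HDAC2. HMG20B and PHF21A are further subunits, the first with a DNA-binding HMG box and the second with a PHD finger that reads unmethylated lysine 4 of histone H3. In blood cells GFI1 and GFI1B bring the complex to their target genes. HDAC3 works mainly in separate complexes with NCoR and SMRT, and STAT5A is a transcription factor that JAK kinases switch on once IL3 binds its receptor.

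The 4 stretches below are the upstream parts of the promoters of Kdm1a, Rcor1, Rcor2 and Rcor3, shown for the demethylase gene and the 3 scaffold genes, whose promoters all overlapped called LSD1 regions. LSD1 with IL3 also overlapped the Phf21a promoter, which is not shown. They are from RefSeq, build GRCm38.p6 (mm10), run 5′ to 3′ on the strand of the gene, and end at the last base before the annotated gene. They lie at chr4:136602788-136602973 (minus strand), chr12:111039117-111039366 (plus strand), chr19:7267144-7267393 (plus strand) and chr1:192138075-192138290 (minus strand). Capitals mark a match to CACGTG, an E-box.
Kdm1a: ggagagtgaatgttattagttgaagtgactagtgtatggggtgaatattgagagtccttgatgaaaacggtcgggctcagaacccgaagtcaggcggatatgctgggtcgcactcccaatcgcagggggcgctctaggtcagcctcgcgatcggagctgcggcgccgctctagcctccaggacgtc
Rcor1: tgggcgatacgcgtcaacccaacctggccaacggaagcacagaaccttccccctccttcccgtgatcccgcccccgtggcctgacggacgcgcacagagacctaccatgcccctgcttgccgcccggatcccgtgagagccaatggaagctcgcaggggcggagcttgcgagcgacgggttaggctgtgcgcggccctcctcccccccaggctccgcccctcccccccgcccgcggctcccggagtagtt
Rcor2: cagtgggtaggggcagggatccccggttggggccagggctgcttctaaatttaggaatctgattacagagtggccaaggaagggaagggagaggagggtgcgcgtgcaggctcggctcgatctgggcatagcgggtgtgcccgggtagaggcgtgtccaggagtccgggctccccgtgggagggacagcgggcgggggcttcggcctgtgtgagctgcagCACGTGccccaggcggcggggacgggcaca
Rcor3: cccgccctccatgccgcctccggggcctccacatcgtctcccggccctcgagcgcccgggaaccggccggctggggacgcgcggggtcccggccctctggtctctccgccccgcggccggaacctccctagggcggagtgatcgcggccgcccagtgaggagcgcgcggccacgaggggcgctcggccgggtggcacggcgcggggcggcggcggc

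RefSeq promoters of 300 bases, 250 before and 50 after the start site, were at hand for 7 of the 8 genes, all but Hdac1. Each was searched on both strands for 4 motifs. The letters TTCNNNGAA stand for STAT proteins. Those of ETS factors were CCGGAAG, those of the blood factors of the GATA family were AGATAA, and an E-box was the run CACGTG. The first 3 were found in the promoters of 0 of the 7 genes, against 8.30%, 8.86% and 11.2% of all 32851 promoters of that length. CACGTG was found in 1 of the 7, Rcor2, at chr19:7267364-7267369, 30 bp upstream of the start site and overlapping no other motif, against 7.15% of all promoters. Hmg20b had 3 listed start sites and Phf21a 2. The 7 were counted by gene and the whole set by promoter, so the shares are of unlike units. These are matches of letters in a short window and say nothing of where the proteins bound.

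Within 50 kb of the 8 genes, 1.22 Mb in all, the 6 pooled lists held 113 regions and the 12 replicate lists 109. Merged over all lists, these regions lay at 79 positions. The pooled STAT5A lists held 13 regions without IL3 and 24 with IL3. For LSD1 the numbers were 37 without and 32 with IL3, and for HDAC3 they were 5 and 2. In these lists the regions were denser than around protein-coding genes at large: 30.4 LSD1 regions per Mb without IL3, against 9.42 per Mb over all such windows, and 26.3 against 9.61 with IL3. For STAT5A the values were 10.7 against 2.88 per Mb without IL3 and 19.7 against 8.42 with IL3. For HDAC3 they were 4.11 against 1.81 and 1.64 against 0.645. In the pooled lists the density was thus between 2.27 and 3.71 times that of all gene windows, with no test of that difference. Over the 12 replicate lists this ratio ran from 0 (STAT5A without IL3 replicate 1 and HDAC3 with IL3 replicate 1) to 7.22 (HDAC3 with IL3 replicate 2, with 1 region). The density over all gene windows counted shared stretches once. As mean numbers per gene in the pooled lists the contrast was smaller. Without IL3 these were 1.625 (STAT5A), 4.625 (LSD1) and 0.625 (HDAC3) for the 8 genes, against 0.724, 2.11 and 0.383 for all genes. With IL3 they were 3, 4 and 0.25, against 1.78, 2.22 and 0.138. The windows also hold other genes: of the 113 pooled regions, 49 lay in a member or had a member's end as the nearest gene end, and 64 were nearer to another gene. For LSD1, 22 of the 37 without IL3 and 18 of the 32 with IL3 were nearer to another gene.

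A STAT5A region lay within 50 kb of 7 of the 8 genes without IL3, where 40.9% of all genes had one, and of all 8 with IL3, where 61.4% did. An LSD1 region lay within 50 kb of all 8 without IL3, against 63.0% of all genes, and of 7 with IL3, against 64.7%. Rcor3 was the gene without STAT5A in the absence of IL3, and Hdac1 the gene without LSD1 in its presence. HDAC3 was called near Rcor1, Rcor2 and Hdac1 without IL3, against 24.4% of all genes, and near Rcor2 alone with IL3, against 10.8%. The pooled HDAC3 lists were also the shortest, with 3350 and 1208 regions.

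The libraries differed widely in how many regions were called, which bears on every count below. The replicate lists held from 265 to 15786 regions. STAT5A without IL3 replicate 1 held 354 regions against 4513 in replicate 2, and LSD1 without IL3 replicate 1 held 1007 against 15786. These replicate 1 lists without IL3 placed 0 STAT5A regions and 2 LSD1 regions near the 8 genes, while the replicate 2 lists placed 10 and 33. By library, STAT5A was near 0 and 6 of the 8 genes without IL3 (3.93% and 38.7% of all genes) and near 6 and 7 with IL3 (56.2% and 43.8%). LSD1 was near 2 and 8 without IL3 (10.2% and 62.5%) and near 6 and 7 with IL3 (42.7% and 57.8%). HDAC3 was near 2 and 2 without IL3 (12.1% and 5.65%) and near 0 and 1 with IL3 (5.42% and 2.25%), and in replicate 1 without IL3 it was also called in the Hmg20b window. The lists carry no read totals, so the depth behind them is unknown.

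**Figure D1:**
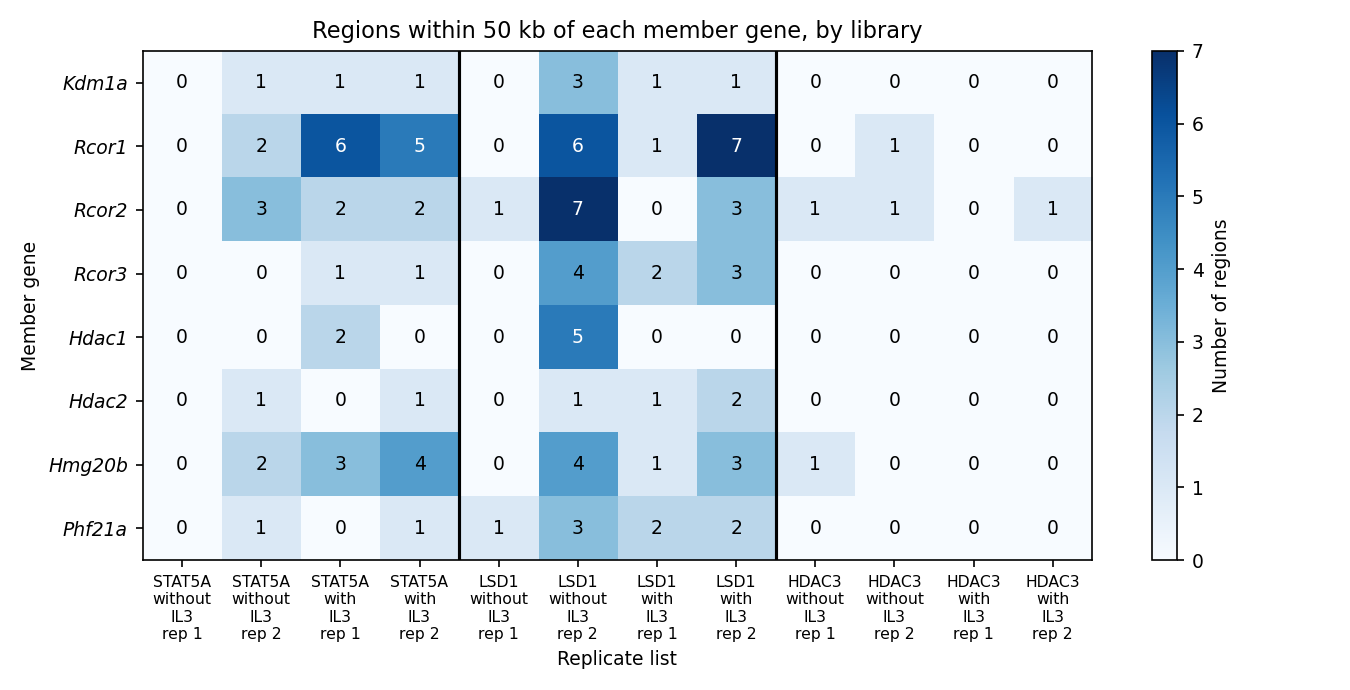
Number of called regions within 50 kb of each gene (rows) in each of the 12 replicate lists (columns), with the count printed in each cell and shown by the depth of blue. The column for STAT5A without IL3 replicate 1 holds 0 throughout, LSD1 without IL3 replicate 2 reaches 7 at Rcor2, and LSD1 with IL3 replicate 2 reaches 7 at Rcor1.

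With IL3 the 2 STAT5A replicates each had 15 regions near the 8 genes, and without IL3 they had 0 and 10. The groups did not overlap. The mean was 15 ± 0 (SD, n = 2) with IL3 and 5 ± 7.07 (SD, n = 2) without, a difference of 2.27 on the scale of log2(number + 1). By a two-sided exact permutation test this gave p = 0.333, the smallest that 2 against 2 samples allow, or 0.5 after Benjamini-Hochberg adjustment over the 3 proteins. Over the whole lists the same difference was 2.87. Per 1000 regions of each list the numbers were 0 and 2.22 without and 1.11 and 2.39 with IL3, so that the groups overlapped, and the log2 difference was 0.57 (exact permutation p = 0.667). With STAT5A without IL3 replicate 1 left out, the difference near the 8 genes was 0.54, and with STAT5A without IL3 replicate 2 left out it was 4.

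LSD1 had 2 and 33 regions near the 8 genes without IL3 and 8 and 21 with IL3. The replicates without IL3 lay on either side of both replicates with IL3. The mean was 17.5 ± 21.9 (SD, n = 2) without and 14.5 ± 9.19 (SD, n = 2) with IL3, and the log2 difference of 0.48 had p = 1 by the same exact permutation test. The mean number was thus lower with IL3 while the mean of the log2 values was higher. Over the whole lists the log2 difference was 1.12. The sign near the 8 genes turned to −1.27 without LSD1 without IL3 replicate 1, to −0.17 without LSD1 with IL3 replicate 2, and to −0.28 when the numbers were taken per 1000 regions of each list. With LSD1 without IL3 replicate 2 left out it was 2.23, and with LSD1 with IL3 replicate 1 left out 1.12.

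HDAC3 had 2 and 2 regions near the 8 genes without IL3 and 0 and 1 with IL3. The groups did not overlap, at counts of 2 or fewer. The log2 difference of −1.08 had p = 0.333 by the exact permutation test, or 0.5 adjusted over the 3 proteins, and over the whole lists the difference was −1.22. Per 1000 regions of each list the numbers were 1.23 and 3.75 without and 0 and 4.27 with IL3, so that the groups overlapped, and the log2 difference was −0.50 (exact permutation p = 1). The unscaled difference was −0.58 with HDAC3 with IL3 replicate 1 left out. The exact permutation p-values here rest on these biological replicates, of which there are 2 a group, and cannot fall below 0.333. The lists of those replicates also differed in length.

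Few positions near the 8 genes were called in both replicates of a group. Of the STAT5A regions with IL3, 3 of 27 were in both replicates, or 11.1%, against 12.1% over the whole lists. Of those without IL3 it was 0 of 10, against 1.80%. LSD1 regions were in both replicates at 6 of 23 positions with IL3, or 26.1%, and at 1 of 34 without, or 2.94%, against 26.4% and 4.98% over the whole lists. For HDAC3 it was 0 of 4 without IL3 and 0 of 1 with IL3, against 8.20% and 1.78%. No position was in all 4 replicate lists of a protein.

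A position counted as gained if both lists with IL3, and no list without it, held the region, and as lost in the opposite case. Of the 34 merged STAT5A positions near the 8 genes, 2 were gained, where 8.72% of all merged STAT5A regions were. The first lay upstream of Rcor1, at chr12:111037433-111037680. The second lay in the Hmg20b window at chr10:81358232-81358499, inside Mfsd12. No STAT5A position was lost, where 0.0482% were over the genome. With STAT5A with IL3 replicate 1 left out the gained count was 12, with replicate 2 left out it was 15, and with STAT5A without IL3 replicate 1 left out the lost count was 7. A call then rested on the 1 list left in that group, which is easier to meet.

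Of the 47 merged LSD1 positions, 2 were gained, against 3.36% of all, and 1 was lost, against 0.319%. The gained positions lay in the Rcor3 window at chr1:192061717-192061920, inside Traf5, and in the Hmg20b window at chr10:81378370-81378693, by the end of Fzr1. The lost position lay inside Rcor2 at chr19:7268757-7268939. None of the 3 gained and lost LSD1 positions overlapped either gained STAT5A position. The gained count was 12 with LSD1 with IL3 replicate 1 left out and 5 with LSD1 without IL3 replicate 2 left out. The lost count was 24 with LSD1 without IL3 replicate 1 left out. Of 5 HDAC3 positions, 0 were gained and 0 lost, against 0.0389% and 3.58%. With HDAC3 with IL3 replicate 1 left out 1 was gained, and with HDAC3 without IL3 replicate 1 or replicate 2 left out 2 were lost.

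Kdm1a, the gene of the demethylase itself, lies at chr4:136550533-136602787 on the minus strand. LSD1 was called at its own start site in both conditions. The pooled region without IL3 lay with its centre 89 bp upstream of the start site and had a score of 25.4, rank 7597 of 16890. Scores are the authors' own values, of undefined unit, and serve only to rank regions within a list, with tied regions sharing a rank. With IL3 the LSD1 region lay 148 bp downstream, with a score of 16.7 and rank 6755 of 17092. Both ranks are in the upper part of the list but far from its top.

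By library, LSD1 at the Kdm1a start site was called without IL3 in replicate 2 alone (score 27.4) and with IL3 in replicate 1 alone (score 19.8). STAT5A was called there without IL3, centred 25 bp downstream of the start site, with a score of 18.9 and rank 1390 of 5051, and in replicate 2 alone (score 23.8). With IL3 the pooled STAT5A region was elsewhere, 12417 bp downstream of the start site inside the gene, with a score of 44.9 and rank 3520 of 15546, and came from replicate 1 (score 63.4). Replicate 2 with IL3 had instead a region 411 bp downstream of the start site (score 25). No replicate pair thus placed STAT5A at the same position of Kdm1a, and no list held HDAC3 near it.

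Rcor1, the main CoREST scaffold gene, lies at chr12:111039367-111115902 on the plus strand, with no other protein-coding gene within 50 kb. It had the most regions of the 8 genes, 28 over the 12 replicate lists. STAT5A numbers were 0 and 2 without IL3 and 6 and 5 with IL3. LSD1 numbers were 0 and 6 without IL3 and 1 and 7 with IL3, and HDAC3 was called once, without IL3 in replicate 2. LSD1 groups overlapped at Rcor1, while those of STAT5A did not. STAT5A groups were also apart at Hmg20b (0 and 2 without against 3 and 4 with IL3) and Rcor3 (0 and 0 against 1 and 1). At Kdm1a, Rcor2, Hdac1, Hdac2 and Phf21a they overlapped or tied. The lengths of the whole STAT5A lists did not overlap either, at 354 and 4513 without and 13574 and 6288 with IL3. The share of all genes with such a pattern was not counted, and the part of list length in it was not tested.

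The gained STAT5A region upstream of Rcor1 had a pooled score of 138.9, rank 861 of 15546, with its centre 1794 bp upstream of the start site. With IL3 it scored 216.3 in replicate 1, rank 816 of 13574, and 40 in replicate 2, rank 2042 of 6288. It was in neither list without IL3. No LSD1 or HDAC3 region overlapped it. Without IL3 the pooled list held a STAT5A region 968 bp upstream, with a score of 16.8 and rank 2114 of 5051, which was in no replicate list.

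STAT5A with IL3 replicate 2 also had a region 210 bp upstream (score 40, rank 2042 of 6288), which overlapped one of LSD1 with IL3 replicate 2 and was not in the pooled STAT5A list. The pooled LSD1 region without IL3 was centred 282 bp upstream of the Rcor1 start site, with a score of 38 and rank 3190 of 16890. With IL3 there were 2, the first 586 bp upstream (score 19.3, rank 4865 of 17092) and the second 81 bp downstream (score 16.7, rank 6755). In replicate lists all LSD1 regions within 1 kb of this start site were in replicate 2.

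Most regions at Rcor1 were upstream of it. A position 31360 bp upstream, at chr12:111007899-111008245, was in 5 replicate lists, the most of any of the 79 positions. These were STAT5A without IL3 replicate 2 (score 23.8), STAT5A with IL3 replicate 1 (score 48.5) and replicate 2 (score 35), and LSD1 replicate 2 without IL3 (score 36.6) and with IL3 (score 21.3). STAT5A and LSD1 thus met there in both conditions, and HDAC3 was not called. At 46792 bp upstream, LSD1 alone was called, with a pooled score of 43.1 and rank 2401 of 16890 without IL3 and 29.5 and rank 1623 of 17092 with IL3. It was in LSD1 without IL3 replicate 2 (score 45.7) and with IL3 in replicate 1 (score 32.2) and replicate 2 (score 34.6).

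All 3 proteins were called at a further position, 10624 bp upstream of Rcor1, at chr12:111028652-111028969. The pooled HDAC3 region there, without IL3, had a score of 24.5 and rank 661 of 3350, and STAT5A had a score of 16.8 and rank 2114 of 5051. LSD1 had a score of 30.4 and rank 5255 without IL3, and 14.1 and rank 9615 with IL3. HDAC3 and STAT5A were not called there with IL3. All 4 replicate lists that held this position were replicate 2 lists.

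**Figure D2:**
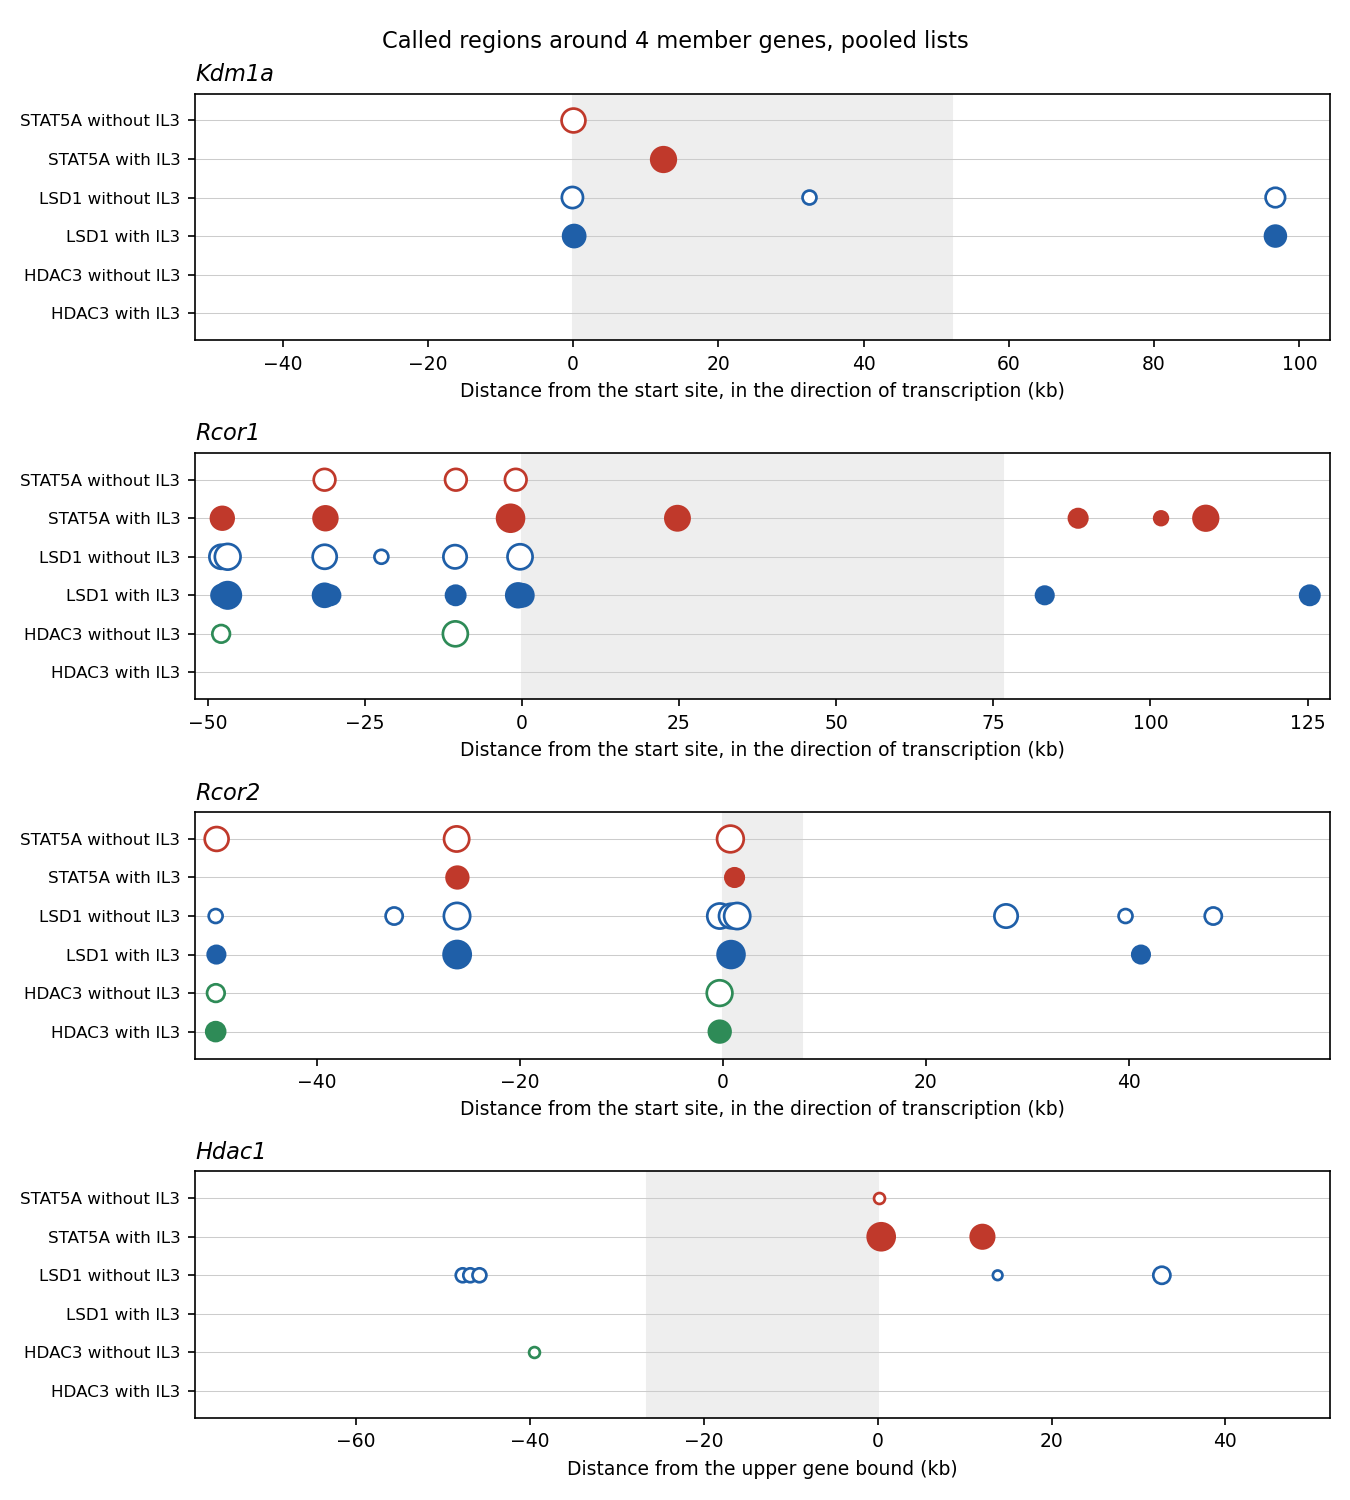
Pooled regions around Kdm1a, Rcor1, Rcor2 and Hdac1, by list (rows). The horizontal axis gives distance in kb from the start site in the direction of transcription, or from the upper gene bound for Hdac1; grey marks the gene, open circles are without IL3, filled circles with IL3, and a larger circle ranks nearer the top of its list. Regions of all 3 proteins sit upstream of Rcor1, HDAC3 sits by the Rcor2 start site in both conditions, and the LSD1 rows of Hdac1 hold 5 open and 0 filled circles.

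Rcor2, a CoREST paralogue, lies at chr19:7267394-7275225 on the plus strand, close to Cox8a, Mark2 and Naa40. It was the gene of the 8 with HDAC3 at its start site. The pooled HDAC3 region was centred 299 bp upstream without IL3, with a score of 26.7 and rank 494 of 3350, and 287 bp upstream with IL3, with a score of 15.8 and rank 508 of 1208. HDAC3 without IL3 was called in replicate 1, 83 bp from the start site (score 50.8), and in replicate 2, 291 bp from it (score 25.7). These regions did not overlap each other, so HDAC3 here was in both replicates without IL3 but not at the same position. With IL3 neither replicate list held it.

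LSD1 overlapped the HDAC3 region upstream of Rcor2 without IL3, with a score of 38 and rank 3190 of 16890, and was not called at that position with IL3. Inside the gene, LSD1 was called 855 bp downstream of the start site without IL3 (score 35.5, rank 3746) and 829 bp downstream with IL3 (score 35.9, rank 982 of 17092). STAT5A without IL3 lay 766 bp downstream, with a score of 27.2 and rank 344 of 5051, the highest rank of any STAT5A region without IL3 near the 8 genes. In STAT5A without IL3 replicate 2 it had a score of 47.5 and rank 133 of 4513, and it was not in replicate 1. With IL3 the STAT5A region lay 1176 bp downstream, with a score of 19.2 and rank 9437 of 15546.

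The lost LSD1 position inside Rcor2 had a pooled score of 48.2 and rank 1866 of 16890, with its centre 1435 bp downstream of the start site. Without IL3 it scored 75.6 in replicate 1, rank 383 of 1007, and 42.7 in replicate 2, rank 2974 of 15786. It was in no list with IL3, and was the one LSD1 position near the 8 genes in both replicates without IL3. With IL3, LSD1 was called elsewhere in the gene, 835 bp downstream of the start site, in replicate 2 (score 58.6). The strongest LSD1 region in the window by rank, at the end of Naa40, had a score of 43.6 and rank 608 of 17092 with IL3, and 50.7 and rank 1645 of 16890 without.

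Rcor3, the remaining scaffold gene, lies at chr1:192098546-192138074 on the minus strand, with Traf5 beside it. LSD1 was at its start site in 3 of 4 replicate lists, without IL3 in replicate 2 (score 39.6) and with IL3 in replicate 1 (score 19.8) and replicate 2 (score 29.3). The pooled regions were centred 165 bp upstream without IL3, with a score of 43.1 and rank 2401 of 16890, and 75 bp upstream with IL3, with a score of 24.4 and rank 2634 of 17092. STAT5A was called at the start site with IL3 in replicate 2 alone (score 30), and the pooled list did not hold it. The pooled STAT5A region with IL3 lay in Traf5, 46274 bp downstream of the Rcor3 start site, with a score of 113.2 and rank 1179 of 15546, and was in replicate 1 alone (score 190.2). No HDAC3 region lay near Rcor3, and no STAT5A region was called without IL3 in any list.

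Hdac1 lies at chr4:129516104-129542646, among 7 other genes that include Lck. LSD1 numbers were 0 and 5 without IL3 and 0 and 0 with IL3, so that the difference rested on LSD1 without IL3 replicate 2. The 5 pooled LSD1 regions without IL3 ranked between 11346 and 16247 of 16890, all in the lower part of the list, and lay 13798 to 32685 bp beyond the gene. That replicate also held a region 258 bp beyond the upper bound (score 18.3), which the pooled list did not. A STAT5A region with IL3 lay 400 bp beyond the upper bound of Hdac1, at chr4:129542959-129543133, with a score of 147.4 and rank 773 of 15546. This was the highest rank of any STAT5A region with IL3 near the 8 genes. It was in STAT5A with IL3 replicate 1 (score 242.4, rank 673 of 13574) and not in replicate 2. Without IL3 a STAT5A region of the pooled list lay 141 bp beyond the same bound, with a score of 12.6 and rank 4658 of 5051, and was in no replicate list.

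Hdac2, the paralogous deacetylase gene, lies at chr10:36974297-37001889 on the plus strand, with no other protein-coding gene within 50 kb. All 7 of its pooled regions were within 452 bp of its start site. LSD1 was there in 3 of 4 replicate lists, with scores of 24.4 (replicate 2 without IL3), 19.8 (replicate 1 with IL3) and 29.3 (replicate 2 with IL3). STAT5A was there in the replicate 2 list of each condition. The pooled STAT5A regions had low ranks, 3213 of 5051 without IL3, and 12819 and 15003 of 15546 with IL3. No list held HDAC3 near Hdac2.

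Hmg20b, the gene of the HMG-box subunit, lies at chr10:81346046-81350943 on the minus strand among 11 other genes. Its window held 23 pooled regions, of which 22 were nearer to another gene. The region of Hmg20b itself was an LSD1 region with IL3, 319 bp downstream of the nearest start site, with a score of 12.8 and rank 11267 of 17092, and it was in no replicate list. STAT5A with IL3 replicate 2 also had a region inside Hmg20b (score 30, rank 3985 of 6288). The gained STAT5A position in Mfsd12 had a pooled score of 104.7 and rank 1299 of 15546, with scores of 111.9 in replicate 1 and 95 in replicate 2 with IL3. The gained LSD1 position by Fzr1 had scores of 22.3 and 29.3 in those replicates of LSD1 with IL3.

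Phf21a, the gene of the PHD-finger subunit, lies at chr2:92183751-92364667 on the plus strand. LSD1 was called just before the gene in 3 of 4 replicate lists. A region with its centre 317 bp before the gene had a pooled score of 39.8 and rank 751 of 17092 with IL3, and one 292 bp before it had a score of 35.5 and rank 3746 of 16890 without. It was in LSD1 without IL3 replicate 1 (score 75.6), and in LSD1 with IL3 replicate 1 (score 44.6) and replicate 2 (score 40). LSD1 without IL3 replicate 2 had a region next to it, centred 79 bp before the gene (score 30.5), which overlapped a region of LSD1 with IL3 replicate 1 (score 32.2). STAT5A was called once in each replicate 2 list and in neither replicate 1 list, and HDAC3 in no list.

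**Figure D3:**
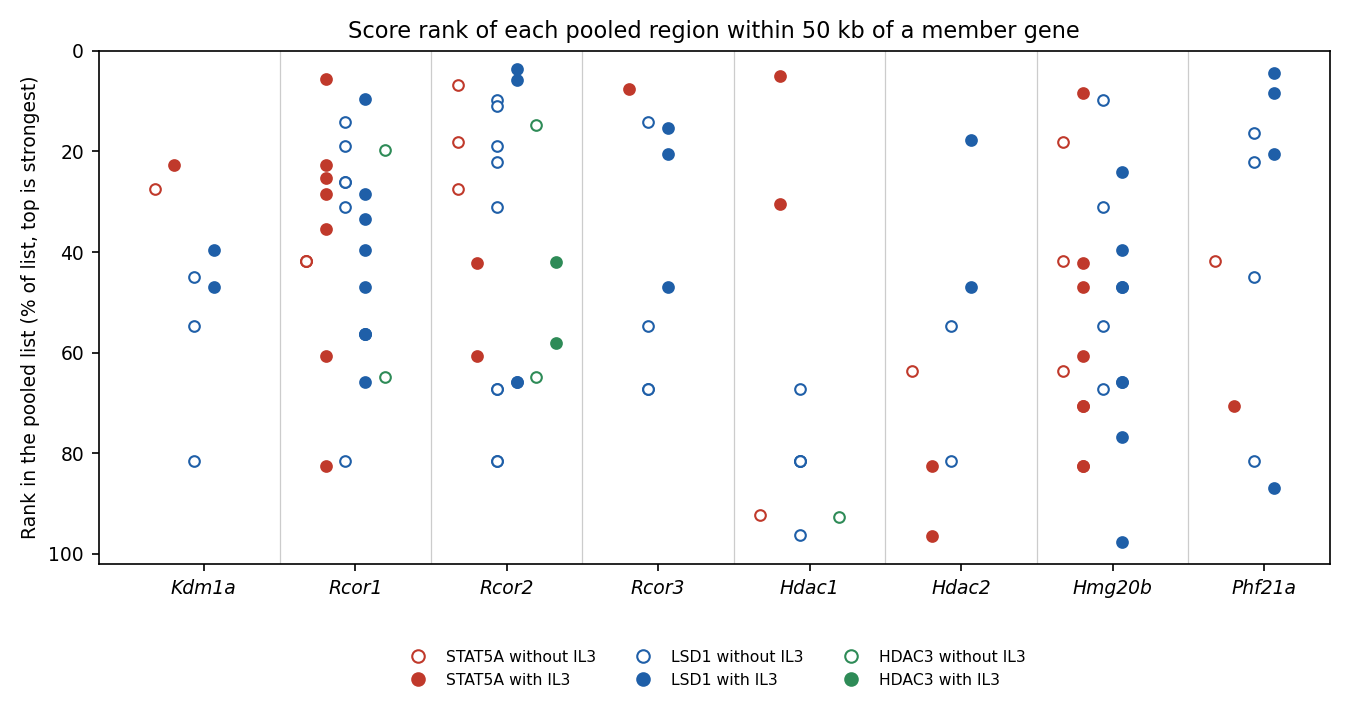
Rank of each pooled region within its own list, as a percentage of the list with the highest scores at the top, for each gene (horizontal axis). Open circles are without IL3 and filled circles with IL3, in red for STAT5A, blue for LSD1 and green for HDAC3; the STAT5A regions with IL3 nearest the top lie at Hdac1, Rcor1, Rcor3 and Hmg20b, and the LSD1 regions of Hdac1 all lie in the lower part.

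The order of the genes by regions per 100 kb of window, summed over the 12 replicate lists, was Rcor2 (19.5), Hmg20b (17.2), Rcor1 (15.9), Rcor3 (7.88), Hdac1 (5.53), Kdm1a (5.25), Hdac2 (4.70) and Phf21a (3.56). Without LSD1 without IL3 replicate 2, which held 5 of the 7 regions at Hdac1 and 7 of the 21 at Rcor2, the order was Hmg20b (13.3), Rcor2 (12.98), Rcor1 (12.5), Rcor3 (5.02), Hdac2 (3.92), Kdm1a (3.28), Phf21a (2.49) and Hdac1 (1.58). Within a group the 2 replicates often differed by more than neighbours in this order. LSD1 without IL3, for example, gave 3.71 ± 3.93 (SD, n = 2) regions per 100 kb at Rcor2 and 1.70 ± 2.40 (SD, n = 2) at Rcor1. These means differ by less than their spread, but both genes were counted in the same 2 lists. Rcor2 lay above Rcor1 in each, at 0.927 against 0 in replicate 1 and 6.49 against 3.40 in replicate 2. STAT5A with IL3 gave 3.12 ± 0.401 (SD, n = 2) at Rcor1, 3.34 ± 0.674 (SD, n = 2) at Hmg20b and 0.657 ± 0 (SD, n = 2) at Kdm1a. Rcor1 lay above Hmg20b in replicate 1 (3.40 against 2.86) and below it in replicate 2 (2.83 against 3.81). Both lay above Kdm1a in each replicate.

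Regions near start sites were counted for the 7 genes with a RefSeq start site, beside 17491 protein-coding genes with one. Without IL3 the pooled STAT5A list had a region within 1 kb of the start sites of 5 of the 7 genes (all but Rcor3 and Hmg20b), against 14.9% of all genes. With IL3 it had one at Hdac2 alone, against 20.0%. Regions with IL3 beyond 1 kb were centred 1176 bp from the start site of Rcor2, 1740 bp from that of Phf21a and 1794 bp from that of Rcor1. Without IL3, Rcor1 counted through a region 968 bp upstream that was in no replicate list. Other distances than 1 kb were not tried. LSD1 was within 1 kb of 5 of 7 without IL3 (all but Hmg20b and Phf21a), against 28.6%, and of all 7 with IL3, against 33.1%. HDAC3 was within 1 kb of Rcor2 alone in each condition, against 4.53% without and 1.45% with IL3.

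The replicates placed STAT5A at these start sites unequally. STAT5A replicate 2 had a region within 1 kb at 4 of 7 start sites without IL3, against 14.8% of all genes, and at 5 of 7 with IL3, against 15.0%. STAT5A replicate 1 had 0 of 7 without IL3, against 0.457%, and 0 of 7 with IL3, against 11.3%, though with IL3 its list was the longer of the pair. LSD1 was at 0 of 7 without IL3 in replicate 1, against 1.94%, and at 5 of 7 in replicate 2, against 25.7%. With IL3 it was at 3 of 7 in replicate 1, against 13.9%, and at 5 of 7 in replicate 2, against 25.7%. HDAC3 was at 1 of 7, Rcor2, in each replicate without IL3, against 1.28% and 0.452%, and at 0 of 7 in each with IL3, against 0.555% and 0.137%. The comparison of STAT5A start sites without and with IL3 in the pooled lists thus moved with the replicate, and the part of the library in it was not tested.

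**Figure D4:**
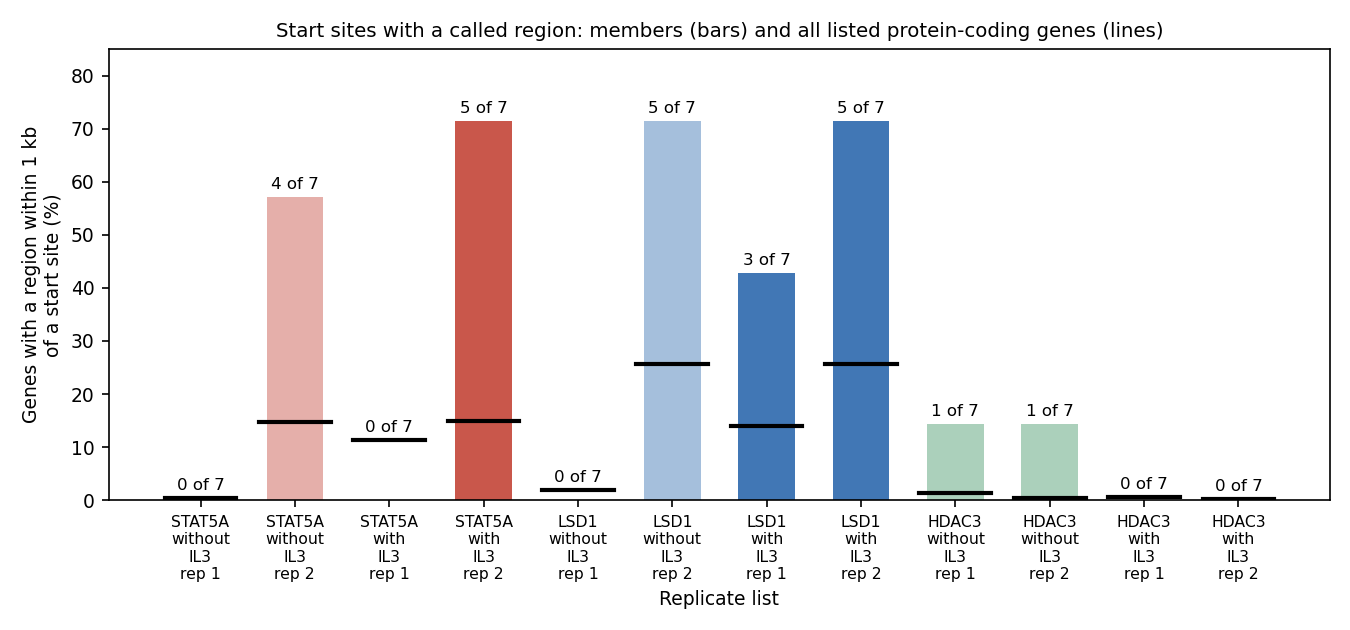
Share of the 7 genes with a called region within 1 kb of a start site in each replicate list (bars, with counts above), beside the share of all 17491 protein-coding genes with a listed start site (black lines); the vertical axis is in percent. Both STAT5A replicate 1 bars are at 0 of 7, and the STAT5A replicate 2 bars stand at 4 of 7 without IL3 and 5 of 7 with IL3.

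Overlap of the proteins near the 8 genes was compared with that over the whole lists. Without IL3, 8 of the 13 pooled STAT5A regions shared at least 1 bp with an LSD1 region, or 61.5% (95% Wilson interval 35.5 to 82.3%), against 52.5% of all STAT5A regions. These were 8 of the 37 LSD1 regions, or 21.6%, against 15.7%. With IL3 it was 8 of 24 STAT5A regions, or 33.3% (95% Wilson interval 18.0 to 53.3%), against 33.4%, and 8 of 32 LSD1 regions, or 25%, against 30.4%. Each interval holds the share of the whole list. The intervals cover counting error only.

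HDAC3 regions met LSD1 at 4 of 5 positions without IL3, or 80% (95% Wilson interval 37.6 to 96.4%), against 69.6% of all HDAC3 regions, and at 1 of 2 with IL3, against 69.0%. STAT5A met HDAC3 at 2 of 13 regions without IL3, or 15.4%, against 17.1%, and these were 2 of the 5 HDAC3 regions. With IL3 it was 0 of 24 (95% Wilson interval 0 to 13.8%), against 4.56% over the whole list, so an absence was not detectable at this number of regions. Of the 79 positions, 3 held all 3 proteins in pooled lists, 2 upstream of Rcor1 and 1 at Cox8a in the Rcor2 window. At the Rcor1 position farther upstream, HDAC3 was called without IL3 and STAT5A with IL3, and these regions shared no base and were joined through LSD1. None of the 79 was in all 6 pooled lists, and the Cox8a position was in 5 of them.

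The highest-scoring STAT5A regions with IL3 near these genes were compared with the pooled LSD1 lists. Of the 24, the 4 in the upper 10% of the pooled list were those at Hdac1 and Rcor1, in Traf5 and in Mfsd12. None of the 4 overlapped a region of either pooled LSD1 list, though that at Hdac1 overlapped a region of LSD1 without IL3 replicate 2 (score 18.3). Over the whole list, 824 of the 1587 regions in the upper 10% of the whole list, or 51.9%, overlapped the pooled LSD1 list with IL3. By replicate, 0 of 15 STAT5A regions of replicate 1 near the 8 genes overlapped the pooled LSD1 list with IL3, against 25.1% of that replicate's list, and 7 of 15 of replicate 2 did, against 51.1%. The STAT5A region of replicate 1 at chr12:111008073-111008245, upstream of Rcor1, did overlap a region of LSD1 with IL3 replicate 2 (score 21.3). These counts were made after the data had been seen and have no test. Of the 4 regions, those at Hdac1 and in Traf5 were in STAT5A with IL3 replicate 1 alone.

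Other genes of the pathway were counted in 2 lists. Of 12 genes of LSD1 partners outside the complex core, among them Gse1, Zmym2, Ctbp1, Rest, Gfi1, Gfi1b, Tal1 and Kdm1b, 11 had an LSD1 region within 50 kb without IL3 and 11 with IL3, against 63.0% and 64.7% of all genes. STAT5A was near 5 of the 12 without IL3, or 41.7% against 40.9% of all genes, and near 11 with IL3, against 61.4%. HDAC3 was near 6 and 3, against 24.4% and 10.8%. Their median number of LSD1 regions with IL3 was 4.5, beside 3.5 for the 8 genes and 2 for all genes. The best LSD1 region with IL3 within 50 kb ranked 40 of 17092 for Gse1 (score 109.1), 68 for Gfi1b (score 95) and 99 for Gfi1 (score 86). These windows held 42, 7 and 6 such regions, and the gene nearest to each best region was not determined. Gfi1 and Gfi1b encode zinc-finger repressors that bind LSD1. The best LSD1 region near the 8 genes, at Naa40, ranked 608 in the same list.

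The other list held 15 genes of NuRD and SIN3 subunits, complexes that share HDAC1 and HDAC2 with CoREST. All 15 had an LSD1 region within 50 kb in each condition, against 63.0% of all genes without and 64.7% with IL3. A STAT5A region was near 11 without IL3 and 13 with IL3, against 40.9% and 61.4%, and an HDAC3 region near 8 and 6, against 24.4% and 10.8%. For Chd4, the NuRD remodelling ATPase, the best LSD1 region with IL3 within 50 kb was at rank 643 (score 42.4). For Sap30, a SIN3 subunit, it was at rank 823 (score 38.5). For the NuRD subunits Mta2 and Gatad2b it was at ranks 1793 (score 28.2) and 2311 (score 25.7). The gene nearest to each of these regions was not determined.

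Over the 12 replicate lists, 7 genes had numbers of regions fully correlated with those of Kdm1a (Pearson's r = 1), of which Amacr, Arrb2 and Degs1 come first by symbol. Each of the 3 had 8 regions in the same lists as Kdm1a. For Rcor1 the most alike were Tbc1d22b (r = 0.988), Khdc4 (r = 0.985) and Tldc2 (r = 0.985). The lists differ in length, and the number at Kdm1a alone correlated with list length at r = 0.876 and that at Rcor1 at r = 0.914. The likeness is a description over 12 lists, and the part of list length in it was not tested.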

How the data were processed

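For each of 12 libraries, and for the merged libraries of each of 6 groups, a list of called regions was deposited. Per the submitters' processing notes, Trimmomatic 0.30, Bowtie2 2.1.0, Picard 1.92, HOMER 4.8 and mm10 were used. The settings, control and threshold of the caller were not given in the sources used here. The score deposited by the authors with each region is undefined and was used only to rank regions within a list. An input library was not analysed here. Gene bounds and start sites are those of RefSeq, GRCm38.p6.

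Regions that touch a gene or the 50 kb on either side were counted with Python 3.11.15, pandas 2.3.3, numpy 2.4.6 and scipy 1.17.1 and drawn with matplotlib 3.10.9. Regions off the assembled chromosomes entered list totals and ranks only, and regions sharing 1 bp or more were called overlapping. Numbers per replicate were compared as log2(number + 1) by a two-sided exact permutation test, adjusted over 3 proteins by Benjamini-Hochberg with a threshold of 0.05. Counting, gained calls and overlap were tested on simulated data, and every planted value was recovered. No lost region was planted, so lost calls were checked only for false ones. The overlap check compared planted regions with a list that held those same regions.

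All members are named, with up to 4 genes of each partner list by best LSD1 rank with IL3, and the 3 genes most like Kdm1a and Rcor1. An item that this rule names is not reported here. The members and lists were chosen with earlier results of these data known. Alternatives were replicates left out in turn, a replicate block, 10 kb windows, gene bounds alone, the upper 50% of each list by score, a stricter overlap, numbers per 1000 regions, and leaving out regions in all 6 pooled lists. The counts at start sites, the upper 10% of STAT5A, the share called in both replicates and the order of the genes without 1 list were added after seeing the data. Whether same-numbered replicates pair across conditions was not settled. Same-numbered deviations over 21883 genes correlated weakly for STAT5A (0.0508) and more strongly for LSD1 (0.377) and HDAC3 (0.264). The replicate block is the alternative that treats them as pairs.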

Additional observations from a re-analysis of the deposited data

Results flagged for a closer look

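The numbers of STAT5A and HDAC3 regions near the 8 genes differed in opposite directions with against without IL3. Both STAT5A replicates with IL3 had more regions than either without (15 and 15 against 0 and 10, a log2 difference of 2.27), and both HDAC3 replicates with IL3 had fewer (0 and 1 against 2 and 2, a log2 difference of −1.08). Per 1000 regions of each list the log2 differences were 0.57 and −0.50, and the groups overlapped for each protein. The difference between the proteins was not tested. Over the whole lists the same differences were 2.87 and −1.22.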

How the results depend on the processing

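With 2 replicates a group no comparison of numbers could pass the threshold. The difference with against without IL3 kept its sign for STAT5A (0.54 to 4 with 1 replicate left out) and HDAC3 (−1.58 to −0.58), and for LSD1 it ran from −1.27 to 2.23, with −0.17 without LSD1 with IL3 replicate 2 and −0.28 per 1000 regions (0.57 for STAT5A and −0.50 for HDAC3). HDAC3 inside gene bounds alone gave no value. With the replicate block the 3 differences stayed at 2.27, 0.48 and −1.08 (exact sign-flip permutation p of 0.5, 1 and 0.5, the smallest possible being 0.5), and no call changed. With 1 replicate left out, gained STAT5A regions ran from 2 to 15 and lost from 0 to 7, gained LSD1 from 3 to 12 and lost from 1 to 24, gained HDAC3 from 0 to 1 and lost from 0 to 2. A call then rested on the 1 list left in that group, which is easier to meet.

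For shares and genes with a region, leaving out a replicate put the list of the other replicate in place of the pooled list. This moved the share of STAT5A regions on LSD1 from 0 to 80% without IL3 and from 0 to 46.7% with IL3. That on HDAC3 without IL3 moved from 0 to 20%. The share of HDAC3 on LSD1 ran from 0% (0 of 5) to 100% (2 of 2) without IL3 and from 0% (0 of 2) to 100% (1 of 1) with IL3. The number of genes with a region then ran from 0 to 6 (STAT5A without IL3), 2 to 8 (LSD1 without IL3) and 0 to 1 (HDAC3 with IL3). Inside gene bounds alone, gained regions were 0 for STAT5A and 0 for LSD1, the genes with a region were 3 and 5 for STAT5A without and with IL3, 4 for LSD1 without IL3 and 0 for HDAC3 in each condition, and the share of STAT5A on HDAC3 without IL3 was 0%. In 10 kb windows gained LSD1 regions were 0, 1 gene had HDAC3 without IL3, and the share of STAT5A on HDAC3 was 0% without IL3. That of HDAC3 on LSD1 there was 100% without (1 of 1 regions) and 0% with IL3 (0 of 1). In the upper 50% of each list by score the last 2 shares were also 100% (2 of 2) and 0% (0 of 1). When the overlap had to cover at least 50% of the region, the shares of STAT5A without IL3 on LSD1 and on HDAC3 were 30.8% and 0%. Beyond the changed rules and lists themselves, the cause of these changes was not tested. Leaving out regions in all 6 pooled lists removed nothing, since none of the 207 lay near the 8 genes.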
